A study of Mus musculus with 5 samples.

Results

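Chemokines, interleukins and their receptors were followed as 94 probe sets of 80 genes, among the 12488 probe sets and 8252 singly annotated genes of a mouse expression array. The members were all probe sets whose single annotated symbol begins with Ccl, Cxcl, Ccr, Cxcr or Il followed by a digit. Of these, 12 probe sets of 10 genes reached a deposited intensity of at least 100 on any of the 5 arrays, and the other 82 were counted as near background. That is 12.8 percent of the member probe sets, against 40.8 percent of the 12422 probe sets that are not the maker's controls. Nearest to that limit from inside were Il6ra with a highest intensity of 102, Ccl22 with 113 and an Il17ra probe set with 115. Nearest from outside were Ccl9 with 94.1, Il13ra1 with 93.5 and Cxcr4 with 88.0.

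Polyadenylated RNA was hybridised from A20 (1 array), which the labels give as a memory B cell line, and from 4 derivatives of AxJ, a mouse line of plasma cells, the antibody-secreting stage of the B lineage. The AxJ derivatives overexpressed the RNA-binding protein hnRNP-F (2 arrays, subclones D6 and B5), overexpressed its relative hnRNP-H (1 array) or carried empty vector (1 array). All 4 AxJ cultures were stably transfected and grown in the selection drug G418, which A20 was not given. Each AxJ array therefore stands for 1 transfected line, and the hnRNP-F subclones had been picked for high protein by western blot and show, per the labels, less secreted relative to membrane heavy chain mRNA. No cytokine or other stimulus was applied to any culture, and the study's title concerns the elongation factor ELL2 and heavy chain RNA processing.

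The arrays' median intensities ranged from 33.9 (A20) to 41.7 (empty vector), and all arrays differed from each other. For Gapdh, whose 5' reading over its 3' reading reflects RNA integrity and labelling, that quotient was 0.384 for A20, 0.683 for D6, 0.181 for B5, 0.866 for hnRNP-H and 0.212 for empty vector. B cell markers were at 100 or more for 9 of 11 measured genes in A20 and for 1 or 2 in the AxJ lines. Of 8 measured plasma cell markers, 4 were at 100 or more in A20 and 5 or 6 in the AxJ lines, and Sdc1 and Tnfrsf17 on no array. Their summed intensity was 2755 in A20 against 8880 to 10176 in the AxJ lines. Much of this sum was Jchain, with 1636 in A20 and 3901 to 6085 in the AxJ lines. Xbp1 read 483 in A20 against 526 in empty vector. All 10 measured T cell markers were under 100 on every array.

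Chemokines are small secreted proteins, named CC or CXC after the spacing of their first cysteines, that guide cell movement through G protein-coupled receptors. Interleukins act on receptors built from a ligand-binding chain and a shared signalling chain, and most of these pass the signal through JAK kinases and STAT factors, whereas the interleukin-1 family uses the adaptor MYD88. In B lineage cells, CXCR5 directs cells into follicles, CXCR4 retains plasma cells in the bone marrow, and interleukins 4, 6, 10 and 21 are known for roles in class switching and antibody secretion.

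By role, 2 of 15 CC chemokine probe sets reached 100, none of 11 for CXC chemokines, 1 of 13 for chemokine receptors, 3 of 26 for interleukins and 6 of 29 for interleukin receptors and binding proteins. Of the 82 probe sets near background, 72 stayed under 50 on every array and 44 under 25. Il6, the growth factor of many mouse plasmacytomas, was among the dimmest, with 2.08 in A20, 0.438 in D6, 4.26 in B5, 2.08 in hnRNP-H and 2.35 in empty vector. At such levels an array reading cannot be told from background, and no detection calls were used. In these RNA pools, fewer cells of a type and less RNA per cell cannot be told apart.

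The CC chemokine Ccl22, which recruits cells through CCR4, had deposited intensities of 102 in A20, 20.8 in D6, 27.6 in B5, 73.5 in hnRNP-H and 113 in empty vector. Both hnRNP-F clones were thus below the other 3 arrays. Ccl3, also called MIP-1 alpha, an attractant of monocytes, read 16.9 in A20, 33.4 in D6, 132 in B5, 25.8 in hnRNP-H and 6.32 in empty vector. It reached 100 on the B5 array alone.

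The chemokine receptor gene Cxcr5, whose product binds the follicular chemokine CXCL13, read 185 in A20, against 8.0 in D6, 9.18 in B5, 7.37 in hnRNP-H and 9.22 in empty vector. A20 lay far above the 4 AxJ lines, which differed little among themselves. Its ligand gene Cxcl13 stayed near background on all 5 arrays. Cxcr4, the receptor for CXCL12, ran the other way just under the limit, with 37.6 in A20 against 79.8 to 88.0 in the AxJ lines. Its difference between A20 and the AxJ controls, on the log2 scale described below, was -0.88, and it was not called.

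Among the interleukins, Il10, which encodes an anti-inflammatory cytokine that also supports B lineage cells, had 143 in A20, 282 in D6, 320 in B5, 309 in hnRNP-H and 166 in empty vector. A second Il10 probe set, one of the maker's controls, read 47.5, 152, 114, 202 and 97.0 on the same arrays. Both put A20 lowest and empty vector next, but they ordered the other 3 AxJ lines differently. Il16, which encodes a chemoattractant ligand of CD4, had 255 in A20, against 51.7 in D6, 86.4 in B5, 66.0 in hnRNP-H and 67.5 in empty vector.

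Receptor chains made up most of the rest. The brightest probe set of all members was that of Il10rb, the signalling chain shared by the receptors for interleukin 10 and its relatives, with 152 in A20, 321 in D6, 286 in B5, 252 in hnRNP-H and 585 in empty vector. Empty vector stood highest and A20 lowest, with no overlap between A20 and the AxJ lines. Il10ra, the chain that binds interleukin 10 itself, stayed between 3.49 and 6.77, whereas the shared chain and the brighter probe set of the ligand exceeded 100 on every array. Il27ra, the receptor chain for interleukin 27, varied least among the members at 100, with 140 in A20, 136 in D6, 127 in B5, 127 in hnRNP-H and 153 in empty vector.

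Il17ra, which encodes the common receptor chain for interleukin 17 cytokines, was measured by a pair of probe sets. The brighter read 223 in A20, 141 in D6, 107 in B5, 102 in hnRNP-H and 127 in empty vector, and the dimmer 115, 43.5, 15.9, 47.7 and 26.9 on the same arrays. A20 was highest on both. Il6ra, the binding chain of the interleukin 6 receptor, read 49.2 in A20, 102 in D6, 85.7 in B5, 92.4 in hnRNP-H and 13.3 in empty vector, so that empty vector stood apart on the low side. For its signalling partner Il6st, or gp130, the brighter probe set read 124 in A20, 85.2 in D6, 65.5 in B5, 39.97 in hnRNP-H and 78.2 in empty vector. A second Il6st probe set stayed between 19.9 and 37.6 and did not put A20 highest.

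**Figure D1:**
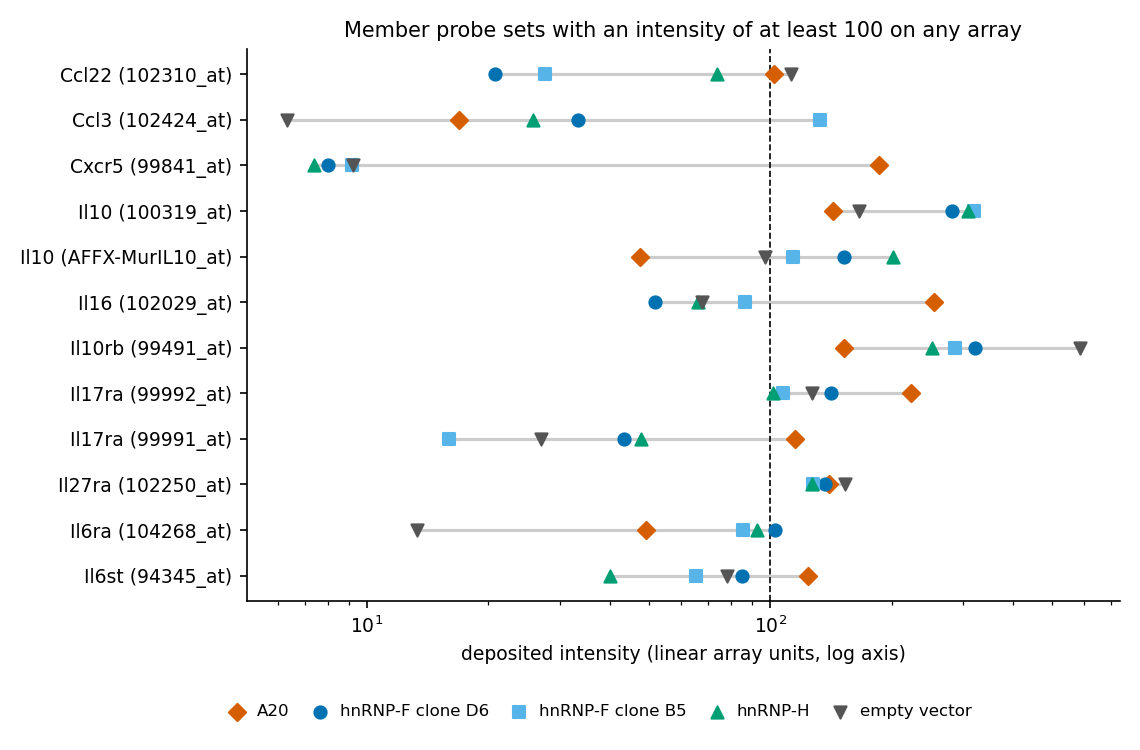
Deposited intensities (log axis) of the 12 member probe sets that reached 100 on any array, with 1 point per array and a dashed line at 100. A20 stands to the right of the 4 AxJ lines for Cxcr5 (185), Il16 (255) and both Il17ra probe sets, and to their left for both Il10 probe sets and Il10rb.

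The comparison of A20 with the AxJ controls, hnRNP-H and empty vector, asked which members differ between a B cell line and a plasma cell line. Cxcr5 rose and Il13ra1 fell, and they were the 2 calls among 53 member probe sets tested. Over all 9108 probe sets tested, 5.88 percent were called, 2.89 percent higher and 3 percent lower, against 1.89 percent of members in each direction, so the members' share was not above the background. Differences are given on the scale of log2(intensity + 6.55) after quantile normalisation, which understates changes of dim probe sets, with limma's standard error and Benjamini-Hochberg adjusted p over all probe sets tested. A20 had 1 array, so its side has no replicate check and was assumed to vary like the AxJ arrays.

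Cxcr5 was higher in A20 by 3.67 (SE 0.65, limma adjusted p = 0.0161, 1 array against 2). It exceeded the limit on low values on the A20 array alone. Because the AxJ readings were near background, the added constant sets the size, which ranged from 2.39 to 4.32 over the alternatives, with adjusted p from 0.00356 to 0.0727. Il13ra1, a chain of the receptors for interleukins 4 and 13, read 14.0 in A20, against 81.9 in D6, 70.2 in B5, 93.5 in hnRNP-H and 72.3 in empty vector. It fell by 1.85 (SE 0.45, limma adjusted p = 0.0485), and A20 lay below all 4 AxJ lines. The Il13ra1 call was lost when any 1 AxJ array was left out, with adjusted p of 0.107 without D6, 0.0882 without B5, 0.0922 without hnRNP-H and 0.0639 without empty vector.

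Il16 differed by 1.81 (SE 0.45) and missed the threshold narrowly (limma adjusted p = 0.0549). It passed under both other scalings, with adjusted p of 0.0306 for the authors' scaling and 0.0244 for median scaling, while the alternatives as a whole gave 0.0244 to 0.144. The dimmer Il17ra probe set differed by 1.58 (SE 0.66, limma adjusted p = 0.233) and the brighter by 0.88 (SE 0.38, adjusted p = 0.260). Il10rb differed by -1.36 (SE 0.50, limma adjusted p = 0.171), but without hnRNP-H, which leaves empty vector as the control, by -1.998 with adjusted p = 0.0229, and without empty vector by -0.73. Counted by levels, A20 lay at least 2-fold outside the range of all 4 AxJ lines for 3 member probe sets upward (Cxcr5, Il16 and the dimmer Il17ra), 5.66 percent of members tested against 5.28 percent of all probe sets. Downward it did so for Il13ra1, 1.89 percent against 4.84 percent, which makes 7.55 percent in either direction against 10.1 percent. At an unadjusted limma p under 0.05 there were 6 member probe sets, or 11.3 percent, against 19.3 percent of all.

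**Figure D2:**
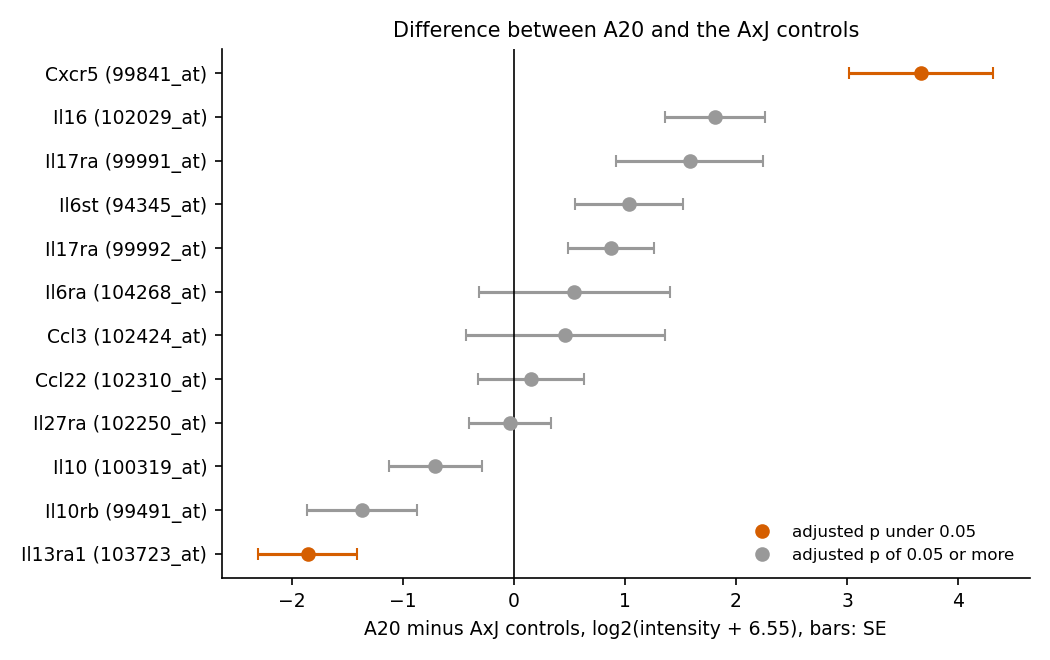
Difference between A20 and the AxJ controls (log2 scale, bars: standard error) for the 11 tested probe sets that reached 100 and for Il13ra1. Cxcr5 at 3.67 and Il13ra1 at -1.85 passed the adjusted p threshold, and the other points did not.

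Genes that act downstream of these receptors were read from lists chosen with earlier results of these data known. Of 20 tested genes of chemokine receptor signalling, 5 rose in A20 and none fell, beside 2.89 percent of all probe sets called higher, with a median of 0.96 against -0.04 over all probe sets. They were Prkcb, a protein kinase C (5.90), Gnb2, a G protein beta subunit (2.76), Dock2, an activator of RAC in migrating lymphocytes (2.67), Rhoh (2.21), and Rac2. Of 23 JAK-STAT genes, 2 rose, Bcl6, a germinal centre repressor (6.41), and Ptpn6, the phosphatase SHP-1 (3.88), and the median was 0.04. Bcl6 read 889 in A20, against 1.44 in D6, 21.3 in B5, 6.46 in hnRNP-H and 1.57 in empty vector. These AxJ readings lay under the limit on low values, so Bcl6 was tested because of its A20 reading. As for Cxcr5, the added constant sets the size of its difference. None of 8 genes of interleukin-1 receptor signalling passed. Among 23 cytokine and receptor genes outside the naming rule, Flt3, the receptor of FLT3 ligand, rose by 2.32. In the comparison of the hnRNP-F clones with the controls, none of these genes passed.

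Against the AxJ controls, the hnRNP-F clones showed no member that passed. Of all 9108 probe sets 1 did, 0.011 percent. At an unadjusted limma p under 0.05 there were 8 member probe sets of 53 and 5.78 percent of all. Both clones were at least 2-fold away from both controls for 6 member probe sets of 53, or 11.3 percent, against 0.889 percent of all probe sets tested. Ccl22, Ccl11, Il17a and Il1f5 lay below the controls, 7.55 percent against 0.406 percent of all, and Il3ra and Cxcl12 above them, 3.77 percent against 0.483 percent. Apart from Ccl22 all of them stayed under 100 on every array and were named after their values were seen. Of the 6, 4 (Ccl11, Il17a, Il1f5 and Cxcl12) exceeded the limit on low values in the higher of these groups alone, so they had to differ to be counted.

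Ccl22 differed by -1.70 (SE 0.39, 2 clones against 2 controls, limma adjusted p = 0.788), with -1.995 to -1.15 over the alternatives. Il3ra, the binding chain of the interleukin 3 receptor, read 60.3 and 62.8 in clones D6 and B5, against 10.3 in the hnRNP-H line and 28.1 with empty vector, and A20 had 72.2. Its difference was 1.52 (SE 0.44, limma adjusted p = 0.788). Ccl11, the eosinophil attractant eotaxin, read 3.93 and 5.47 in clones D6 and B5, against 24.6 in the hnRNP-H line and 29.8 with empty vector.

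Il1f5, an antagonist at the interleukin 36 receptor, read 3.19 and 6.43 in clones D6 and B5, against 27.3 in the hnRNP-H line and 27.7 with empty vector. Il17a, the T cell cytokine interleukin 17A, had 6.84 and 1.04 in clones D6 and B5, against 23.6 in the hnRNP-H line and 26.8 with empty vector. For Cxcl12, the ligand of CXCR4, the brightest probe set read 19.9 and 24.8 in clones D6 and B5, against 4.58 in the hnRNP-H line and 7.74 with empty vector, while its other 2 probe sets stayed under 10 on every array, 1 of them with the clones and controls overlapping. For these 6 the clones and controls could not overlap, because the 6 were chosen by the gap between them. For 5 of them all readings were under 100. With a pseudocount of 32, none of the 6 kept a 2-fold gap. An exact permutation test of 1 value, 2 arrays against 2, cannot reach a p below 1 in 3.

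**Figure D3:**
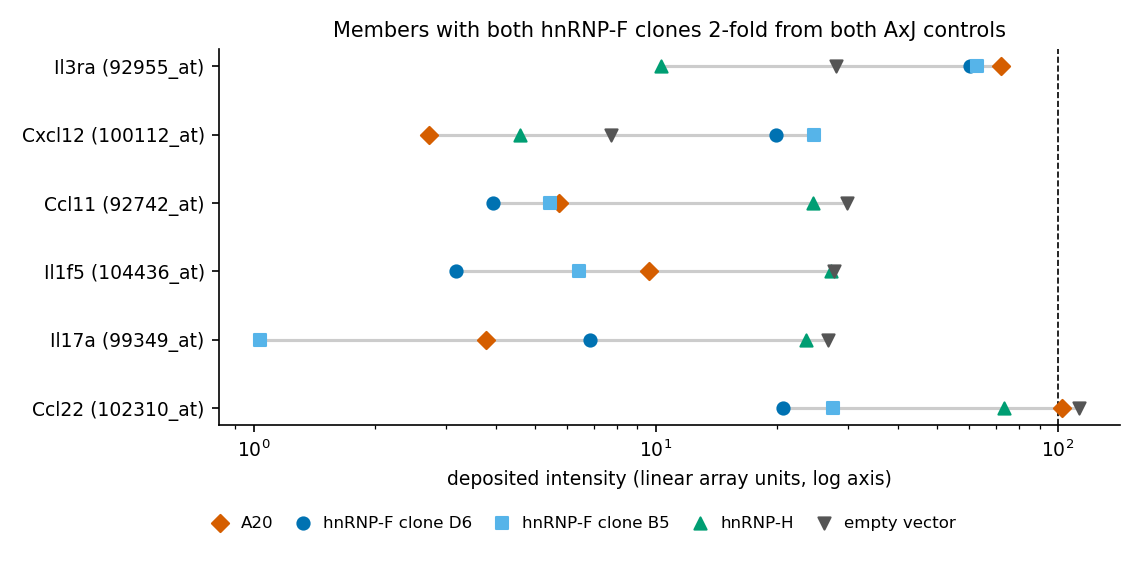
Deposited intensities (log axis) of the 6 member probe sets for which both hnRNP-F clones were at least 2-fold from both AxJ controls, with 1 point per array and a dashed line at 100. Il3ra and Cxcl12 lie higher in the clones (circle and square) than in the controls (triangles), and the other 4 lie lower, Ccl22 being the one with any reading above 100.

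The 2 hnRNP-F clones were compared without a test, since each has 1 array. In D6, 13 of the 53 member probe sets tested were at least 2-fold lower than in B5, or 24.5 percent, against 5.73 percent of all probe sets. Another 3 were at least 2-fold higher in D6, or 5.66 percent, against 6.23 percent of all. Of the 13, 9 exceeded the limit on low values on the B5 array alone, so they entered the count through the array where they were high. In either direction the count was 16, and 4 with a pseudocount of 32.

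For 7 member probe sets B5 was at least 2-fold above every other array, 13.2 percent of those tested against 1.01 percent of all probe sets, and 6 of the 7 had entered through B5 alone. Without any filter on low values the count was also 7, against 0.998 percent of all probe sets, but with a pseudocount of 32 it was 3, against 0.154 percent. The same count was 3 for A20 (5.28 percent of all probe sets), 0 for D6 (0.22 percent), 1 for hnRNP-H (0.395 percent) and 2 for empty vector (1.44 percent). The 7 were the chemokine genes Ccl3, Ccl9, Cxcl2 and Cxcl5, the receptor gene Ccr6 and the interleukin genes Il1a and Il1b, of which all but Ccl3 stayed under 100 and were named after their values were seen. Ccl9, a ligand of CCR1, read 3.54 in D6, against 94.1 in B5, and at most 8.87 on the other arrays. Il1b, the inflammatory cytokine interleukin 1 beta, read 1.60 in D6, against 55.4 in B5, and at most 4.99 elsewhere. These 2 and Cxcr5 were the member probe sets with 1 array at least 4-fold above each other array, 5.66 percent against 1.64 percent of all, and no member had 1 array 4-fold below, against 1.3 percent.

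Il1a, which signals through the same receptor as Il1b, read 13.0 in D6 and 50.8 in B5. The neutrophil attractants Cxcl2 and Cxcl5 read 2.72 and 3.28 in D6, against 44.2 and 24.9 in B5, although Cxcl2 had 20.4 in empty vector. Ccr6, the receptor of CCL20, read 13.5 in D6 and 37.2 in B5. Ccl4, or MIP-1 beta, showed 11.1 in D6 and 31.2 in B5, and the brighter Cxcl1 probe set 23.2 and 51.9, so both lay on the same side with smaller gaps.

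Some of the B5-high genes lie near each other, though Ccr6 is on chromosome 17. Chromosomes 11 and 5 also hold chemokine members for which B5 was not 2-fold above every other array, such as Ccl2, Ccl7, Cxcl9 and Cxcl10. Of these, Cxcl10 read 1.44 in D6 and 11.4 in B5, but 19.0 in A20. The part of gene position in the B5 readings was not tested. In the order of protein-coding genes of the RefSeq annotation (GRCm38.p6), Ccl9 and Ccl3 on chromosome 11 are separated by Ccl6 alone and Ccl4 follows Ccl3. Il1a and Il1b are next to each other on chromosome 2, and 5 genes, all of them chemokines, lie between Cxcl5 and Cxcl2 on chromosome 5. Ccl6, between Ccl9 and Ccl3, had another pattern, with 6.82 in A20, 11.5 in D6, 26.1 in B5, 33.8 in hnRNP-H and 34.3 in empty vector.

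Promoter letters are shown for 4 of the genes high in B5, because these genes were high on the same array. RefSeq windows (GRCm38.p6) matched 63 of the 80 member genes, and of each window the 250 bases before the transcript start were searched on both strands for TATAAA, the TATA box, and for an NF-kB type motif (3 G, any 2 bases, 3 T, 2 C). Capitals mark matches, which overlap in Ccl9, where TATAAA is met on both strands at once. The stretches run 5' to 3' on the gene's strand, at chr11:83649379-83649628 (minus) for Ccl3, chr11:83578637-83578886 (minus) for Ccl9, chr5:90903649-90903898 (plus) for Cxcl2 and chr2:129371165-129371389 (minus) for Il1b, each ending just before the annotated gene. For Il1b that leaves 225 bases, since the annotated gene begins upstream of the transcript start searched, which is 31 bases after the first base of its TATAAA.
Ccl3: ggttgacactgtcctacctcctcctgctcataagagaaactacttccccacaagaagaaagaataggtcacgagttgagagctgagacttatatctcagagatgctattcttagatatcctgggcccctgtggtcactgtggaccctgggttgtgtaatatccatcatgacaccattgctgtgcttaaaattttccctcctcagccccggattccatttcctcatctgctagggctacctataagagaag
Ccl9: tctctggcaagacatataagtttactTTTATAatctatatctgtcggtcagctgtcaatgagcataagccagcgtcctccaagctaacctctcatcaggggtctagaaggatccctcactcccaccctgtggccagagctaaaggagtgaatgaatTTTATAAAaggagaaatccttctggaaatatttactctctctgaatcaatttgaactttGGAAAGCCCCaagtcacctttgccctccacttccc
Cxcl2: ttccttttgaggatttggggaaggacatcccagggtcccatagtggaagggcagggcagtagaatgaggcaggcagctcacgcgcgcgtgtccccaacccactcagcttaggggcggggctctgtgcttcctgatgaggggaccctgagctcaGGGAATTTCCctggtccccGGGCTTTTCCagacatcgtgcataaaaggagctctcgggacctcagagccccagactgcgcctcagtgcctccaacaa
Il1b: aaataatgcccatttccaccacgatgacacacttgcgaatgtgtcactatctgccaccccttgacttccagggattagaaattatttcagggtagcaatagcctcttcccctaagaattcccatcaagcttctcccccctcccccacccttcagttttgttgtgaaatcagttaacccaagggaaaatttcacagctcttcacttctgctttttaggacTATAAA

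TATAAA was found in 15 of 77 member windows, or 19.5 percent, against 12.4 percent of all 32851 windows, and the NF-kB type motif in 8 of 77, or 10.4 percent, against 1.41 percent. Among the 6 B5-high genes with a window, TATAAA was met in Ccl9, Il1a and Il1b and the NF-kB type motif in Ccl9 and Cxcl2, while Ccl3 and Ccr6 held neither. The 8 member genes with the NF-kB type motif were Ccl9, Ccr3, Cxcl1, Cxcl2, Il16, Il1rn, Il6 and Il9. Their highest intensities ran from 4.26 for Il6 to 255 for Il16, so genes with a match spanned the range of levels. A match describes letters in the window and shows neither binding nor use.

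Other measures moved with the B5 readings. Lyz2, a lysozyme gene of myeloid cells, read 1.21 in D6, against 47.5 in B5, and at most 5.16 elsewhere, and Cd14 read 132 in D6, against 241 in B5. The other myeloid markers went both ways. Cybb read 4.71 in D6 against 36.2 in B5, Csf1r 55.4 against 68.0 and Spi1 128 against 152, although Cybb had 36.5 in A20. Lower in B5 were Cd68 with 146 in D6 against 103 in B5, Elane with 54.8 against 44.5 and Mpo with 13.8 against 2.97. Fcgr3 was also slightly lower, with 12.9 in D6 against 12.3 in B5. The summed intensity of the 11 myeloid markers was 560 in D6 and 716 in B5, with 438 to 493 on the other arrays, and 3 of the 11 reached 100 in D6, B5 and hnRNP-H, 1 in A20 and 2 in empty vector. Summed readings of markers of other cell types were also higher in B5, with 575 in D6 and 714 in B5 for 11 stromal markers and 118 in D6 and 172 in B5 for 10 T cell markers, while empty vector had 669 and 195. The macrophage marker Adgre1 was near background at 5.25 in D6 and 4.56 in B5, as was Itgam at 5.24 and 3.95. B5 also had the lowest Gapdh ratio, 0.181 against 0.683 in D6, and empty vector had 0.212. Of the B5-high probe sets, empty vector read 3.05 for Ccl9, 3.20 for Il1b, 3.39 for Cxcl5 and 6.32 for Ccl3. It read 9.88 for Ccr6, 11.5 for Il1a and 20.4 for Cxcl2. Cxcl2 read 2.72 in D6, 4.41 in hnRNP-H and 7.16 in A20. The part of these measures in the B5 readings was not tested.

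**Figure D4:**
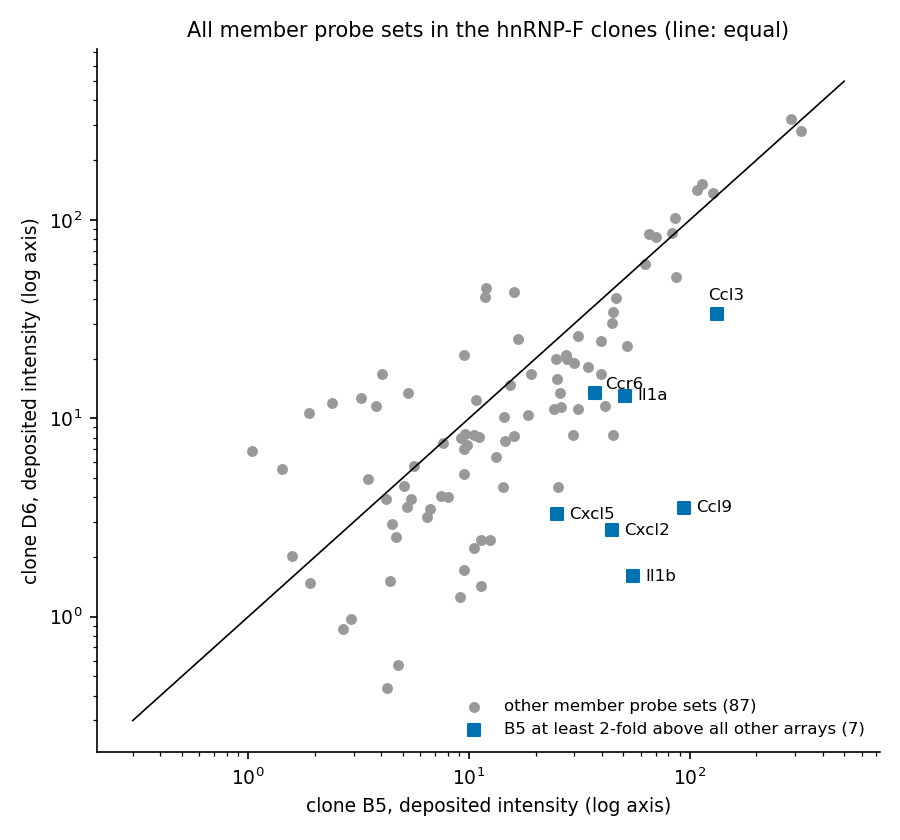
Deposited intensities of all 94 member probe sets in clone D6 (vertical, log axis) and clone B5 (horizontal, log axis), with a line of equal values. The 7 labelled squares, from Cxcl5 (3.28 in D6, 24.9 in B5) to Ccl3 (33.4 in D6, 132 in B5), were at least 2-fold higher in B5 than on every other array.

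A wider count covers all members near background, and so holds the B5-high probe sets other than Ccl3 again. It is not a separate check, and 44 of these members stayed under 25 on every array. B5 gave the highest of the 5 readings for 38 of the 82 near-background members, or 46.3 percent, against 27.3 percent of all 7358 probe sets, controls aside, that stayed under 100. Empty vector gave the highest for 23, or 28 percent, against 34 percent, and A20 for 5, or 6.1 percent, against 11.6 percent. The median reading of the near-background members was 8.17 in D6 and 11.6 in B5, and over all dim probe sets it was 12.3 in D6 and 13.5 in B5.

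The hnRNP-H line was set against empty vector, with 1 array each and no test. At least 2-fold differences were found for 14 of 53 member probe sets, or 26.4 percent, against 18.1 percent of all, with 5 higher in hnRNP-H (9.43 percent, against 9.97 percent of all) and 9 lower (17 percent, against 8.18 percent). Il12b, Il18 and Il4, on the lower side, exceeded the limit on low values on the empty vector array alone. Il18r1, on the higher side, did so on the hnRNP-H array alone. These members entered the count through the array where they were high. Of the 14, those that reached 100 on any array were Il6ra, with a log2 difference of 2.48, and Ccl3, with 1.53, on the higher side and Il10rb, with -1.27, on the lower. On the arrays compared, Il6ra and Ccl3 stayed under 100. Il6ra read 92.4 in hnRNP-H and 13.3 in empty vector, and Ccl3 read 25.8 and 6.32. With a pseudocount of 32 the count of 14 became 3. For Il6ra both hnRNP-F clones read like hnRNP-H, so empty vector was the array that differed. Il15ra, the binding chain of the interleukin 15 receptor, followed neither grouping, with 11.5 in D6, 41.5 in B5, 8.08 in hnRNP-H and 69.6 in empty vector, and so was higher on both arrays of low Gapdh ratio. The part of RNA quality in it was not tested.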

How the data were processed

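Polyadenylated RNA of 5 cultures was measured on 1 Affymetrix array each. The deposited values are linear intensities, which the authors had scaled to a trimmed mean of about 150 per array (2 percent left out at each end), as the values show; the software is not given in the sources used here, nor is any background step. Symbols came from the array annotation of the platform, updated through gene identifiers to RefSeq (GRCm38.p6): 10855 probe sets had 1 symbol, 396 several and 1237 none. The members and lists were chosen with earlier results of these data known.

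Arrays were quantile normalised over all probe sets. The 66 control probe sets were left out of tests, 2 members among them. A constant of 6.55, the 20th percentile, was added before log2, and probe sets were kept if any array exceeded 21.8, the 40th percentile. This left 9108 probe sets with 53 members, 39 members being too dim. limma 3.58.1 in R 4.3.3 (lmFit, eBayes with an intensity trend) fitted all 5 arrays with 3 coefficients, leaving 2 residual degrees of freedom and a prior of 6.51. Tests were two-sided with Benjamini-Hochberg adjustment and a threshold of 0.05. No source says that a culture was repeated, and p-values reflect just the spread among these arrays; the number of arrays limits the precision. The procedure was tested on simulated data. These were normal values drawn with the fit's own variances, with A20 varying like the AxJ arrays, so they could not check that assumption.

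Named were members that reached 100 and were called, set A20 or both clones 2-fold apart, set 1 array 4-fold apart or stayed at 100 or more throughout. For completeness the other members at 100 are given too. Il13ra1, under 100, was named because it was called. Other named members under 100, among them Cxcr4, Ccl4, Ccl6, Cxcl1 and Il15ra, fall outside this rule and were named with their values known. Where a gene had several probe sets each is given, and lists used the one of highest mean log2 value. Alternatives covered the pseudocount, filter, scaling, intensity trend, 1 probe set per gene, Gapdh ratio class, grouping and each AxJ array left out. Those for the 2-fold counts of the clones and of B5 were chosen after seeing the data.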

Additional observations from a re-analysis of the deposited data

How the results depend on the processing

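Cxcr5 kept its call under 13 of 14 alternatives and Il13ra1 under 5 of 13. Cxcr5 lost it with the filter set at 100 (adjusted p = 0.0727), and Il13ra1 with a pseudocount of 32 (0.0674), no filter (0.118), no intensity trend (0.109), the Gapdh class as a block (0.0516) and each AxJ array left out. Il16 passed under 7 of 14. Some differences between A20 and the controls that had not passed changed sign, and none of these passed there. As reported, the differences were 0.16 for Ccl22, 0.46 for Ccl3, 0.54 for Il6ra and -0.034 for Il27ra. Against all 4 AxJ arrays Ccl3 was at -0.51 and Il6ra at -0.10. Without empty vector the sign changed for Ccl3 (-0.31), Il6ra (-0.70) and Il27ra (0.13) but not for Ccl22 (0.45). Without hnRNP-H it changed for Ccl22 (-0.14) but not for Ccl3 (1.23), Il6ra (1.79) or Il27ra (-0.20). With the Gapdh class as a block Il6ra was at -0.12 and Il27ra at 0.049, and Il27ra was at 0.0081 under the authors' scaling and 0.22 under median scaling. The cause was not tested. The member calls in A20 numbered 1 without the filter, with the filter at 100 and without the intensity trend, and from 1 to 2 with 1 array left out. Over all probe sets the A20 calls numbered 309 without the filter, 146 without the trend and from 303 to 656 with 1 array left out, against 536. Of those 536, 49.1 percent were higher in A20, against 65.2 percent of 549 under median scaling. The median difference of all probe sets was -0.04, -0.14 under the authors' scaling and 0.06 under median scaling. For the hnRNP-F clones the calls over all probe sets numbered 0 without the filter and without the trend and from 1 to 3 with 1 array left out, and the member calls were 0 under all 13 alternatives.

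Counts of 2-fold gaps without a test rest on dim readings. With a pseudocount of 32 they fell to 3 members for hnRNP-H against empty vector, 4 for D6 against B5, 3 for B5 above all others and 0 for both clones against both controls. With the filter at 100 they were 3, 2, 1 and 1. No paired analysis was possible because the labels give the groups no shared replicate numbers.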

Other observations

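Probe sets annotated to several genes were not counted as members. Of 6 that include a chemokine or interleukin name, the highest reading was 62.5, for the one shared by Ccl19 and its copies, which read 52.5 in A20, 56.7 in D6, 22.3 in B5, 62.5 in hnRNP-H and 31.9 in empty vector. A probe set shared by Ccl27a and Ccl27b read 1.87 in A20, 16.5 in D6, 31.7 in B5, 37.8 in hnRNP-H and 44.0 in empty vector. The one shared by the Ccl21 copies stayed between 12.9 and 23.6.

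Among relatives outside the naming rule, Csf3, the neutrophil growth factor G-CSF, read 64.0 in D6, against 154 in B5, and 38.7 in A20, 102 in hnRNP-H and 76.7 in empty vector. Csf1, the macrophage growth factor, read 28.9 in D6, against 62.3 in B5. Both were named after their values were seen, and the difference between the clones has no test. Stat6, which relays interleukin 4 signals, read 280 in A20, against 98.4 in hnRNP-H and 66.0 in empty vector, and did not pass.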
